A study of Homo sapiens with 12 samples.

Results

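The enzymes described here make serine and asparagine and pass the carbon of serine into the folate cycle. They are 8 genes: PHGDH, PSAT1, PSPH, SHMT1, SHMT2, MTHFD1, MTHFD2 and ASNS. Each was read from the probe set that carries its symbol alone, and where a gene had several such probe sets the one with the highest mean over the arrays was used. All 8 were measured, of 18417 genes with such a probe set and 33297 probe sets in all.

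PHGDH, PSAT1 and PSPH convert an intermediate of glycolysis to serine in consecutive steps. SHMT1 in the cytosol and SHMT2 in mitochondria then split serine into glycine and a carbon unit carried by folate, and MTHFD1 in the cytosol and MTHFD2 in mitochondria interconvert the folate-bound forms used for purine and thymidylate synthesis. ASNS makes asparagine from aspartate and glutamine and is a classical target of ATF4, the transcription factor of the amino acid response, which is also known to act on PHGDH, PSAT1, SHMT2 and MTHFD2. In breast cancer the serine pathway is known for a high PHGDH level in a share of tumours that lack the oestrogen receptor.

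The samples were cultures of MDA-MB-231, an oestrogen receptor-negative human breast cancer line, profiled on Affymetrix Human Gene 1.0 ST arrays. All titles give subline 1833, a derivative known for its spread to bone. The study asks which genes HMGA2, TET1 and HOXA9 regulate. Control cells carry no construct that the labels name. The shHMGA2 cells carry an shRNA against HMGA2, a chromatin protein of embryonic and tumour cells, in the lentiviral vector pLKO.1 and were kept in puromycin at 0.5 µg/ml. Cells of the Tet1 and HOXA9 groups carry pLVX-TRE3G-Flag-Tet1 or pLVX-TRE3G-HOXA9 together with the Tet-On 3G regulator of pCMV-Tet3G. They were selected in puromycin at 0.5 µg/ml and G418 at 500 µg/ml, and grew in Tet System Approved serum. Source names of these last groups give subline 1834, against 1833 for control and shHMGA2. The labels call the samples biological replicates but give no separate clones, passages or days, so p-values measure only the spread between these samples.

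The analysis used 10 independent arrays: 3 control, 3 shHMGA2, 2 Tet1 and 2 HOXA9. The deposited replicate 3 of Tet1 and of HOXA9 was in all 33297 probe sets the mean of the other columns of its group and was left out. Arrays correlated at 0.986 to 0.998 within the control and shHMGA2 set and at 0.993 to 0.997 within the Tet1 and HOXA9 set, but at 0.945 to 0.966 between the sets. Median log2 values were 7.21 to 7.28 in the first set and 7.66 to 7.71 in the second. Array set, serum, puromycin, G418, subline number and construct therefore cannot be told apart in any comparison of Tet1 or HOXA9 with control. The labels give no puromycin and no vector for control. Against it, the shRNA, its vector and puromycin cannot be told apart in shHMGA2. The mesenchymal markers VIM and CD44 lay at group means of 12.68 to 13.53 and of 12.42 to 12.92. The receptor genes ESR1 and PGR lay at 5.95 to 6.96 and 5.53 to 5.79, and CDH1 of the same list at 5.66 to 6.04. Other receptor and luminal genes lay higher: KRT18 at 11.27 to 11.81, KRT19 at 10.25 to 11.68 and ERBB2 at 8.60 to 8.92. EPCAM lay at 7.61 to 8.25 and GATA3 at 7.79 to 7.97. As deposited, ESR1 was called higher than control in Tet1 (0.89) and HOXA9 (0.91). Values are on the log2 scale throughout, no detection calls were used, and all 8 genes lay above the 30th percentile of all values (6.22) in every group.

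The targeted genes gave an uneven check of the labels. The probe set for HMGA2, which is shared with ELAC2, averaged 9.56 in control, 8.81 in shHMGA2, 10.42 in Tet1 and 10.41 in HOXA9. A probe set of ELAC2 alone averaged 10.72, 10.86, 10.38 and 10.50 in the same order. TET1 averaged 6.56 in control, 8.97 in shHMGA2, 7.07 in Tet1 and 7.30 in HOXA9, so the arrays labelled Tet1 were not above those labelled HOXA9 (difference -0.23, 95% confidence interval -0.56 to 0.10). The HOXA9 transcript itself is not given, as its probe sets carry other symbols too. The arrays labelled shHMGA2 also stood apart in genes outside serine synthesis. MTAP, a methionine salvage enzyme in a region known to be deleted in MDA-MB-231, read 7.84, 7.97 and 8.20 in these arrays and 6.13, 6.33 and 6.40 in control. CDKN2A, a cell cycle inhibitor of the same region, averaged 9.88 against 7.40. HOXD10, on a list of traits of the kidney line HEK293, read 10.20, 10.30 and 10.77 against 5.86 to 6.06 in control. Of the 9 genes of that list 5 were higher in shHMGA2, against 13.6% of all genes. The list mean per array was 7.42 to 7.63 in shHMGA2 against 6.59 to 6.69 in control. Its genes CDH6, LHX1, PAX2 and TFAP2B were not called in shHMGA2. All 4 were higher in Tet1 and HOXA9 than in control as deposited. There 6 and 5 of the 9 were called higher, against 53.9% and 54% of all genes, and the list mean was 6.98 to 7.15. In control CDH6 and TFAP2B averaged below 6.22, and the lower quartile of all values was higher in the Tet1 and HOXA9 arrays. After quantile normalization 4 of the 9 were higher in shHMGA2, 3 in Tet1 and 2 in HOXA9. Of all 18417 genes 2366, 6001 and 5478 were then higher. Of the 6 mesenchymal markers 4 were lower in shHMGA2 and 0 higher (AXL -0.40, MSN -0.29, CAV1 -0.26, CD44 -0.25), and 5 were lower after quantile normalization. Lower calls in shHMGA2 made up 12.6% of all genes as deposited, and 2614 of 18417 genes after quantile normalization. The levels of MTAP and CDKN2A go against the labelled line, so the identity of the arrays labelled shHMGA2 is in doubt, and every shHMGA2 value below is that of the arrays so labelled. The part of these differences in the values that follow was not tested.

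Reference promoters were found for 6 of the 8 genes in RefSeq on GRCh38.p14: all but PSPH and SHMT2. The 250 bases before the start are shown for PHGDH, MTHFD2 and ASNS, which had the largest rises in shHMGA2, and for PSAT1, which had the largest falls in the inducible lines. Each reads 5′ to 3′ on the gene's strand. In ASNS the capitals mark the letters of the C/EBP-ATF response element TGATGNAA, the element through which ATF4 is known to act on ASNS. In the others they mark CCAAT, the box bound by NF-Y, in either direction.
PHGDH (chr1:119711684-119711933, plus strand): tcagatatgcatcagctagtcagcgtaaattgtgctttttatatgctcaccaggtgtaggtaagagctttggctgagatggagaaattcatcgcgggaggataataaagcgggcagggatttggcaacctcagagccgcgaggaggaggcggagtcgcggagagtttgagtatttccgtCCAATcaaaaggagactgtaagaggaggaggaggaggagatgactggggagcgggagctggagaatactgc
PSAT1 (chr9:78296875-78297124, plus strand): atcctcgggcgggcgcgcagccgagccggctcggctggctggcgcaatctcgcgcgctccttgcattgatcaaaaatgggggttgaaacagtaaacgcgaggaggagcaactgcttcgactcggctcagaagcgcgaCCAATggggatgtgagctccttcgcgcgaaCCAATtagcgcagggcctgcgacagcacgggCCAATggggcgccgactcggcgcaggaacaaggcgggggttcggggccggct
MTHFD2 (chr2:74198365-74198614, plus strand): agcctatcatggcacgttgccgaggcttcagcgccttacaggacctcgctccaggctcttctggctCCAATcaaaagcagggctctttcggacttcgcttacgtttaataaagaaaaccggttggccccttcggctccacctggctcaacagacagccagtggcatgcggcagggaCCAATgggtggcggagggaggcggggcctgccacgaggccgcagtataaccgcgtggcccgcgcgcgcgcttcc
ASNS (chr7:97872409-97872658, minus strand): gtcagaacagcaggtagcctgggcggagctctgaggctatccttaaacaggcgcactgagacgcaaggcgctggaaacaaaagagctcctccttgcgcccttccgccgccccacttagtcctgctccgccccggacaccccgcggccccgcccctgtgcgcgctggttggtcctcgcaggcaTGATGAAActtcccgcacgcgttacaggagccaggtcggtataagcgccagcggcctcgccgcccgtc

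Windows of 300 bases, from 250 before to 50 after the start, were searched on both strands for 5 motifs, with base -1 just before the start. ASNS alone held TGATGNAA, at -68 to -61, a motif found in 3.62% of all 35116 promoters. A second ASNS start in the table had no match. CCAAT was present in 5 of the 6 genes (all but ASNS) and in 34.6% of all promoters. PSAT1 had 3 copies, beginning at -113, -83 and -52. MTHFD2 had copies at -184 and -74, and PHGDH had a copy at -71. TGANNNNGC, a loose pattern searched for the antioxidant response element, matched 5 of the 6 genes, all but PSAT1, and 41.8% of all promoters. It leaves the base after TGA open, so a match need not be that element. In SHMT1 it overlapped a CCAAT match. The E-box CACGTG matched MTHFD1 (7.26% of all promoters), and the CREB/ATF site TGACGTCA matched none of the 6 (1.85% of all). These matches describe letters in the reference, not binding.

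In the arrays labelled shHMGA2, 5 of the 8 transcripts rose and 0 fell: PHGDH 1.85-fold, MTHFD2 and ASNS each 1.41-fold, PSAT1 1.30-fold and SHMT1 1.25-fold. PSPH, SHMT2 and MTHFD1 did not pass the test. Of all genes tested, 26.2% passed by the same rule, 13.6% as higher and 12.6% as lower. The rule was an adjusted p under 0.05 from limma, adjusted across the whole table by the method of Benjamini and Hochberg. Among the 6544 genes within the range of mean levels of these 8 (8.51 to 11.28), a comparison chosen after seeing the data, 17.5% were higher. After quantile normalization or with equal array medians 12.8% or 11.4% of all genes were higher, and the same 5 transcripts were called. The median change of the 8 was 0.35, against -0.03 for all genes.

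In both inducible lines the transcripts were lower than in control, in 8 of 8 genes for Tet1 and 7 of 8 for HOXA9. PSAT1 stood out with values 2.99-fold and 2.96-fold lower. The background was large, since 77.1% of all genes were called in either direction in Tet1 and 75.7% in HOXA9. By direction, 53.9% and 54% of all genes were higher, and 23.2% and 21.6% were lower. Among genes at the level of these 8, 43.6% and 40.8% were lower. Both comparisons, and that of shHMGA2, share the control arrays. Between Tet1 and HOXA9 limma called 0 of the 8, against 0.434% of all genes (0.114% as higher and 0.32% as lower in Tet1). An unadjusted p under 0.05 was reached there by 2 of the 8, SHMT1 and SHMT2. The share of all genes at that unadjusted rule is not given here, so this count has no background. In whole cultures fewer cells of a type and less RNA per cell cannot be told apart.

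**Figure D1:**
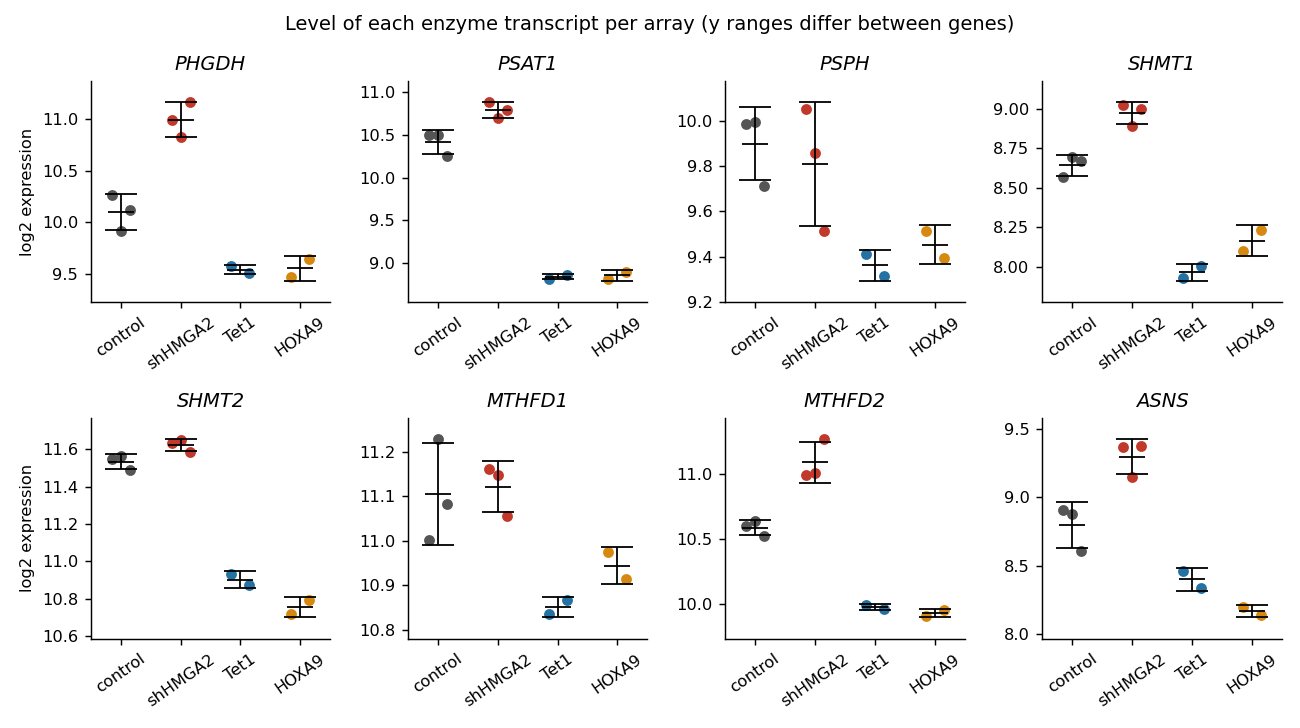
Log2 expression of each transcript in the 10 independent arrays, 1 panel per gene, with points for arrays and bars for the group mean and SD (n = 3, 3, 2 and 2). PSAT1 lies at 8.81 to 8.90 in the 4 arrays of the inducible lines and at 10.26 to 10.88 in the other 6, and PHGDH separates shHMGA2 from control as well.

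PHGDH, the first and rate-setting enzyme of serine synthesis, read 10.27, 9.92 and 10.12 in control and 10.99, 10.82 and 11.16 in shHMGA2. It read 9.58 and 9.51 in Tet1 and 9.48 and 9.65 in HOXA9. Every shHMGA2 array lay above every control array, and every array of the inducible lines below the controls. Groups were apart in this way for 40.5% of all genes in shHMGA2, 85.7% in Tet1 and 82.8% in HOXA9 against control, and for 41.3% between Tet1 and HOXA9. The means were 10.10 ± 0.17 (SD, n = 3) and 10.99 ± 0.17 (SD, n = 3), then 9.55 ± 0.04 (SD, n = 2) and 9.56 ± 0.12 (SD, n = 2). The rise in shHMGA2 was 0.89 (SE 0.10, limma adjusted p = 6.5e-05), with a 95% confidence interval of 0.67 to 1.11, the largest rise among the 8. Against control PHGDH fell by 0.55 in Tet1 (limma adjusted p = 0.00066) and by 0.54 in HOXA9 (0.00086). Tet1 and HOXA9 overlapped, with a difference of -0.02 (95% confidence interval -0.28 to 0.25). A further probe set, assigned to both MZT2B and PHGDH, moved differently, by 0.01 in shHMGA2, 0.79 in Tet1 and 0.67 in HOXA9, and which of its genes gives the signal is not known.

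PSAT1, the aminotransferase of the next step, had the widest span of group means, 1.96. Control arrays read 10.50, 10.49 and 10.26, and shHMGA2 arrays 10.88, 10.70 and 10.79. The Tet1 arrays read 8.81 and 8.86 and the HOXA9 arrays 8.81 and 8.90. No shHMGA2 array overlapped control, and the inducible lines lay far below both while overlapping each other. PSAT1 rose by 0.38 in shHMGA2 (SE 0.08, limma adjusted p = 0.0032). Its change was -1.58 in Tet1 (SE 0.08, limma adjusted p = 3.4e-08) and -1.56 in HOXA9 (SE 0.08, 4.3e-08). By size these ranked 273rd and 271st among 18417 genes. The difference between Tet1 and HOXA9 was -0.02 (95% confidence interval -0.22 to 0.19).

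PSPH, the phosphatase that releases serine, was 1 of the 3 genes not called in shHMGA2. It read 9.99, 10.00 and 9.71 in control and 10.05, 9.86 and 9.51 in shHMGA2, so the groups overlapped, and the shHMGA2 mean varied most (9.81 ± 0.27, SD, n = 3). The difference was -0.09 (95% confidence interval -0.35 to 0.17, limma adjusted p = 0.66). Among the control and shHMGA2 arrays, shHMGA2 replicate 3 was the lowest in PSPH and the highest in PHGDH, MTHFD2 and the kidney-line list mean (7.63). The other members did not share this order. Replicate 3 was not the highest in PSAT1 or SHMT1, and ASNS read 9.37 in replicates 1 and 3. In SHMT2 (11.58) and MTHFD1 (11.06) it was the lowest of the shHMGA2 arrays. For PSPH, Tet1 read 9.41 and 9.31 and HOXA9 9.51 and 9.39, all below every control array. PSPH fell by 0.54 in Tet1 (limma adjusted p = 0.0031) and by 0.45 in HOXA9 (0.0099), and the second call was lost without HOXA9 replicate 2 (-0.39, limma adjusted p = 0.076). A second PSPH probe set gave -0.20, -0.79 and -0.60 in shHMGA2, Tet1 and HOXA9.

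SHMT1, the cytosolic serine hydroxymethyltransferase, read 8.57, 8.69 and 8.67 in control and 8.89 to 9.02 in shHMGA2 (8.97 ± 0.07, SD, n = 3). It averaged 7.97 ± 0.05 (SD, n = 2) in Tet1 and read 8.10 and 8.24 in HOXA9. No pair of groups overlapped, and Tet1 was the lowest. SHMT1 rose by 0.33 in shHMGA2 (SE 0.06, limma adjusted p = 0.0028). It fell by 0.68 in Tet1 (3.9e-06) and by 0.48 in HOXA9 (7.3e-05, both limma adjusted p). The difference of Tet1 from HOXA9 was -0.20 (95% confidence interval -0.37 to -0.03) and did not pass adjustment (limma adjusted p = 0.44). Without HOXA9 replicate 2 it was -0.13.

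SHMT2, its mitochondrial counterpart and the known source of most folate-bound carbon in proliferating cells, read 11.55, 11.56 and 11.49 in control and 11.63, 11.65 and 11.58 in shHMGA2. These groups did not overlap, yet the difference of 0.09 (95% confidence interval -0.03 to 0.21) was not called (limma adjusted p = 0.28). Tet1 read 10.93 and 10.87, and HOXA9 10.72 and 10.79. SHMT2 fell by 0.63 in Tet1 (limma adjusted p = 1.8e-06) and by 0.78 in HOXA9 (4.4e-07), the second largest fall among the 8 in HOXA9. The difference between the inducible lines was 0.15 (95% confidence interval 0.00 to 0.29, limma adjusted p = 0.53).

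MTHFD1, the trifunctional cytosolic enzyme, changed least, with a span of group means of 0.27. It read 11.00, 11.23 and 11.08 in control and 11.16, 11.15 and 11.06 in shHMGA2, which overlapped (difference 0.02, 95% confidence interval -0.13 to 0.16, limma adjusted p = 0.89). Tet1 read 10.83 and 10.87 and HOXA9 10.97 and 10.91, all below control. The fall of 0.25 in Tet1 was called (limma adjusted p = 0.0076) and the difference of -0.16 in HOXA9 was not (0.067). Without Tet1 replicate 1 the call was lost (-0.24, limma adjusted p = 0.053), and without control replicate 1 HOXA9 was called (limma adjusted p = 0.025). Without control replicate 2 the difference in HOXA9 was -0.10 (limma adjusted p = 0.23). Whether MTHFD1 differed between Tet1 and HOXA9 was not shown: the difference was -0.09 (95% confidence interval -0.27 to 0.08).

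MTHFD2, the mitochondrial dehydrogenase and cyclohydrolase that is high in embryonic and tumour tissue, read 10.60, 10.64 and 10.52 in control and 10.99, 11.01 and 11.27 in shHMGA2. It read 9.99 and 9.96 in Tet1 and 9.91 and 9.95 in HOXA9. All 4 groups were apart, although the inducible lines differed by only 0.05 (95% confidence interval -0.15 to 0.25). MTHFD2 rose by 0.50 in shHMGA2 (SE 0.07, limma adjusted p = 0.00048). It fell by 0.61 in Tet1 (3.2e-05) and by 0.66 in HOXA9 (2e-05, both limma adjusted p). Its second probe set moved alike, by 0.36, -0.73 and -0.86.

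ASNS, the asparagine synthetase whose promoter holds the TGATGNAA match printed above, read 8.91, 8.88 and 8.61 in control and 9.37, 9.15 and 9.37 in shHMGA2. It read 8.46 and 8.34 in Tet1 and 8.20 and 8.14 in HOXA9. Here too no pair of groups overlapped, and HOXA9 was the lowest. ASNS rose by 0.50 in shHMGA2 (SE 0.09, limma adjusted p = 0.0015). It fell by 0.40 in Tet1 (0.003) and by 0.63 in HOXA9 (0.00011, both limma adjusted p). Tet1 exceeded HOXA9 by 0.23 (95% confidence interval -0.01 to 0.47, limma adjusted p = 0.55), the largest difference between these lines among the 8.

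**Figure D2:**
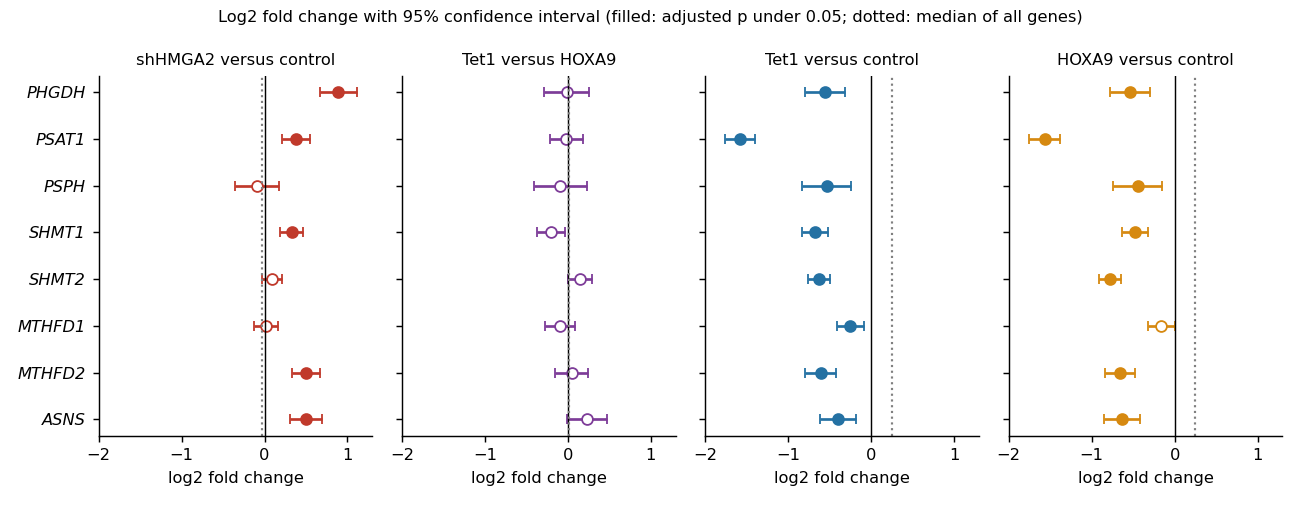
Log2 fold change of each gene in 4 comparisons with 95% confidence intervals, filled where the limma adjusted p was under 0.05, with a dotted line at the median of all genes. The 5 filled points of shHMGA2 lie between 0.33 and 0.89, none is filled for Tet1 against HOXA9, and PSAT1 is farthest to the left against control in both inducible lines.

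The order of the group means was the same in 7 of the 8 genes as far as the 2 upper places go: shHMGA2, then control, then the inducible lines. PSPH had control on top, overlapping shHMGA2, and in MTHFD1 these groups overlapped as well. The lowest place was taken by Tet1 in PHGDH, PSAT1, PSPH, SHMT1 and MTHFD1 and by HOXA9 in SHMT2, MTHFD2 and ASNS. In PHGDH, PSAT1 and PSPH these lowest groups overlapped.

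The falls in the inducible lines depended in size on how the array sets were put on a common scale. As deposited, the median of all genes was 0.25 in Tet1 and 0.24 in HOXA9 against control. Relative to it the 8 genes lay at -0.50 (MTHFD1) to -1.83 (PSAT1) in Tet1 and -0.40 (MTHFD1) to -1.81 (PSAT1) in HOXA9. Among the 6544 genes at the level of these 8 the median itself was below 0, at -0.11 in Tet1 and -0.08 in HOXA9. Measured from that median the falls are smaller. Of the genes called, 69.9% were higher in Tet1 as deposited, 49.4% after 1 quantile normalization of the 10 arrays and 29.9% with equal array medians. For HOXA9 the shares were 71.4%, 46.6% and 28.4%. Each of the 8 genes stayed below control under all 3 scalings, but the background of lower genes grew to 33.3% and 51.4% in Tet1 and to 34% and 51.1% in HOXA9.

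PSAT1 was at -1.60 in both lines after quantile normalization, and at -2.05 in Tet1 and -2.02 in HOXA9 with equal medians. PHGDH was at -0.48 in Tet1 and -0.50 in HOXA9 after quantile normalization, and at -1.02 and -0.99 with equal medians. The same scalings put SHMT1 at -0.97 and -0.74, then -1.14 and -0.93. SHMT2 came to -0.55 and -0.73, then -1.10 and -1.23. MTHFD2 gave -0.50 and -0.58, then -1.08 and -1.11, and ASNS -0.60 and -0.88, then -0.86 and -1.08. PSPH gave -0.49 and -0.43, then -1.003 and -0.90. All of these passed the limma test. MTHFD1 did not do so after quantile normalization (Tet1 -0.15, limma adjusted p = 0.089, and HOXA9 -0.10, 0.27) but did with equal medians (-0.72 and -0.61). Setting equal medians shifts every gene of a comparison by the same log2 amount, so it changes no gene relative to another. Within the control and shHMGA2 set the scaling mattered little: the 5 genes called were called under all 3, with PHGDH at 0.86 to 0.90.

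**Figure D3:**
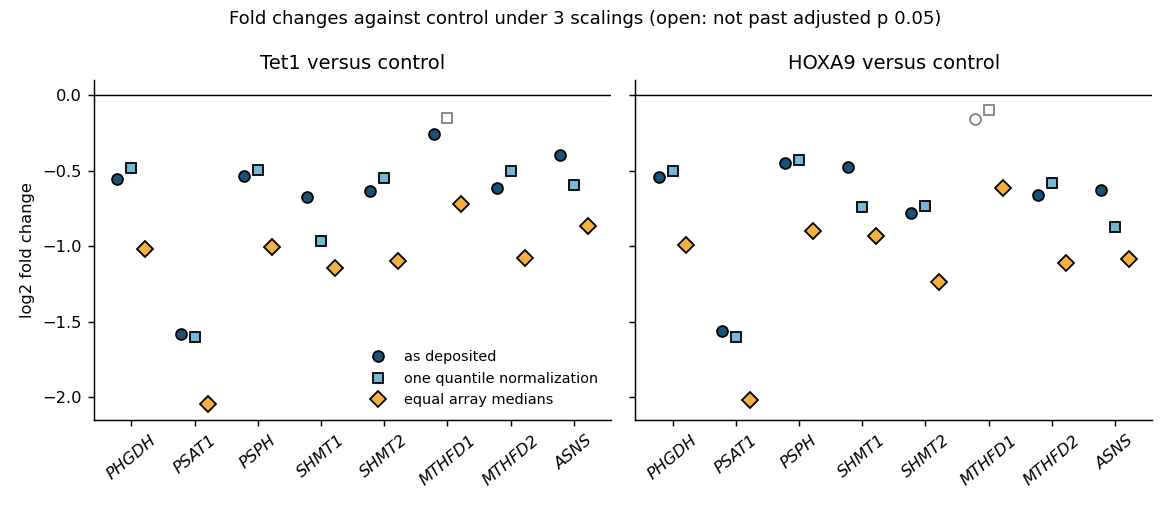
Log2 fold change against control of each gene in Tet1 and in HOXA9 under 3 scalings: values as deposited, after 1 quantile normalization, and with equal array medians (open: adjusted p not under 0.05). All points lie below 0, PSAT1 lowest in every scaling, and MTHFD1 is open after quantile normalization in both lines.

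The other genes of the pathway were read from lists, described by counts only. As background for shHMGA2, 13.6% of all genes were higher and 12.6% lower. Folate enzymes and carriers rose in shHMGA2 in 8 of 17 measured genes and 0 fell by limma (9 and 1 at an unadjusted p under 0.05), with a median change of 0.18 against -0.03 for all genes. ALDH1L2, the mitochondrial enzyme that oxidises formyl-folate, rose by 1.72 (limma adjusted p = 1.7e-06), the most on its list. Among further risers, named after their values were seen, were SLC19A1, the reduced folate carrier (0.87), MTR, methionine synthase (0.71), and MTHFD1L, the mitochondrial formate-producing enzyme (0.31). ATIC and GART of purine synthesis rose by 0.18 and 0.22. Of 3 genes of the glycine cleavage system GLDC, the decarboxylase, rose by 1.08 (limma adjusted p = 8.6e-05), while AMT and DLD were at -0.06 and 0.02 and were not called.

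In the inducible lines 11 of 17 folate genes were lower and 4 higher, in Tet1 as in HOXA9. Among all genes 23.2% and 21.6% were lower there, and 53.9% and 54% higher. SLC25A32, the mitochondrial folate carrier, fell by 1.07 in Tet1 and by 0.87 in HOXA9, and MTRR, which reactivates methionine synthase, fell by 0.80 and 0.87. TYMS, thymidylate synthase, named after its values were seen, fell by 0.75 and 0.57. FOLR1, a folate receptor, rose by 0.95 and 0.96 to group means of 6.94 and 6.95, and stayed higher under the other scalings at 0.39 to 0.50. The count of lower folate genes was 12 and 11 after quantile normalization and 14 in both lines with equal medians. The lower share of all genes was then 33.3% and 34%, and 51.4% and 51.1% with equal medians. GLDC fell by 0.61 in Tet1 and by 0.63 in HOXA9. AMT was higher by 0.59 and 0.57 as deposited but not called under either other scaling (0.11 to 0.16).

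Genes that use serine or recycle methionine changed in both directions. In shHMGA2 1 of 9 serine-use genes rose (SPTLC1, a subunit of the first enzyme of sphingolipid synthesis, 0.28) and 1 fell (SERINC2, a membrane protein of the serine incorporator family, -0.88). SERINC2 also fell in Tet1 (-1.65) and HOXA9 (-1.75), where 5 and 4 of the 9 were lower and 2 higher. SERINC1, of the same family, rose by 0.61 and 0.60 there as deposited. In methionine metabolism 1 of 11 genes rose in shHMGA2 (MTAP, 1.72) and 2 fell. In Tet1 2 rose and 5 fell, and in HOXA9 1 rose and 6 fell, with ENOPH1 of the salvage pathway at -0.84 and -0.80. With equal array medians 0 serine-use genes were higher and 8 and 7 lower, and in methionine metabolism 0 were higher and 9 lower in each line. In Tet1 and HOXA9 23.2% and 21.6% of all genes were lower as deposited, and 51.4% and 51.1% with equal medians.

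Other amino acid enzymes moved little in shHMGA2, where 2 of 12 rose, GLUL (glutamine synthetase) by 0.53 and PYCR1 (proline synthesis) by 0.27, and 0 fell by limma (1 at an unadjusted p under 0.05). In Tet1 and in HOXA9 6 of 12 fell and 2 rose. GOT1, the cytosolic aspartate aminotransferase, was at -1.15 in Tet1 and -1.05 in HOXA9. ASS1, argininosuccinate synthase, was at -1.04 and -1.09, and ASL, the next enzyme of the urea cycle, rose by 0.75 in both. The lower count after quantile normalization was 5 of 12 in each line, and with equal medians it was 10 in Tet1 and 11 in HOXA9. Over all genes the lower share was 23.2% and 21.6% as deposited. It was 33.3% and 34% after quantile normalization, and 51.4% and 51.1% with equal medians.

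The genes of ATF4 and the stress response did not share one direction. In shHMGA2 4 of 20 rose and 5 fell as deposited, with 4 and 9 after quantile normalization. STC2, a secreted glycoprotein, rose by 1.22 (limma adjusted p = 3.7e-05), SESN2, a leucine sensor, by 0.65 and ATF4 itself by 0.23 (0.042). DDIT4, an inhibitor of mTORC1, fell by 0.58 (0.0077) and DDIT3, the CHOP factor, by 0.31, while TRIB3 (-0.16) and CHAC1 (-0.22), common ATF4 targets, were not called. The rise of ATF4 was not called with equal array medians (0.20, limma adjusted p = 0.074).

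In the inducible lines 9 of these 20 rose in Tet1 and 6 in HOXA9, and 3 fell in each. Of all genes 53.9% and 54% were higher and 23.2% and 21.6% lower. The list medians of 0.15 and 0.09 lay below those of all genes, 0.25 and 0.24. The direction of this list changed with the scaling. Quantile normalization gave 6 higher and 7 lower in Tet1 and 5 and 9 in HOXA9, and equal medians gave 3 and 11, and 3 and 13. The lower share of all genes was 33.3% and 34% after quantile normalization and 51.4% and 51.1% with equal medians. DDIT4 rose by 2.56 in Tet1 (limma adjusted p = 6.4e-08) and by 2.18 in HOXA9 (2.1e-07), and was still 1.72 to 2.49 higher under the other scalings. ATF4 was at -0.11 and -0.15 and was not called as deposited or after quantile normalization, but was lower with equal medians (-0.58 and -0.60). PPP1R15A, a phosphatase subunit that reverses the stress response, fell by 0.61 and 0.89.

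Amino acid transporters were lower in 11 of 15 genes in Tet1 and 10 of 15 in HOXA9, and higher in 2. After quantile normalization 12 and 13 were lower, and with equal medians 13 and 14. The share of all genes called lower was 23.2% and 21.6% as deposited, 33.3% and 34% after quantile normalization and 51.4% and 51.1% with equal medians. SLC7A11, the cystine importer, changed by -1.99 in Tet1 (limma adjusted p = 1.5e-07) and by -1.54 in HOXA9 (1e-06). SLC7A5, the leucine carrier, changed by -1.57 and -1.48, and SLC1A5, the glutamine and serine carrier, by -1.23 and -1.33 (both named after their values were seen). In shHMGA2 2 of the 15 rose and 5 fell, against 13.6% and 12.6% of all genes. SLC7A3, an arginine carrier, rose by 0.69, and SLC6A9, a glycine carrier, fell by 0.52.

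Of 19 cytosolic aminoacyl-tRNA synthetases, which load amino acids onto tRNAs, 12 were lower in Tet1 and 11 in HOXA9, and none higher as deposited. After quantile normalization 11 were lower in each and 2 and 1 higher, and with equal medians all 19 were lower. Lower calls over all genes made up 23.2% and 21.6% as deposited, then 33.3% and 34%, and 51.4% and 51.1% with equal medians. YARS1, for tyrosine, fell by 1.00 and 1.06. NARS1, for asparagine, and GARS1, for glycine, named after their values were seen, were at -0.47 and -0.48 in Tet1 and at -0.66 and -0.63 in HOXA9. In shHMGA2 2 of 19 rose (EPRS1 0.31, IARS1 0.25) and 1 fell (CARS1, -0.23). Between Tet1 and HOXA9 limma called 0 of the 114 genes of the pathway lists, and 13 had an unadjusted p under 0.05. For all genes the share at that unadjusted rule is not given here.

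**Figure D4:**
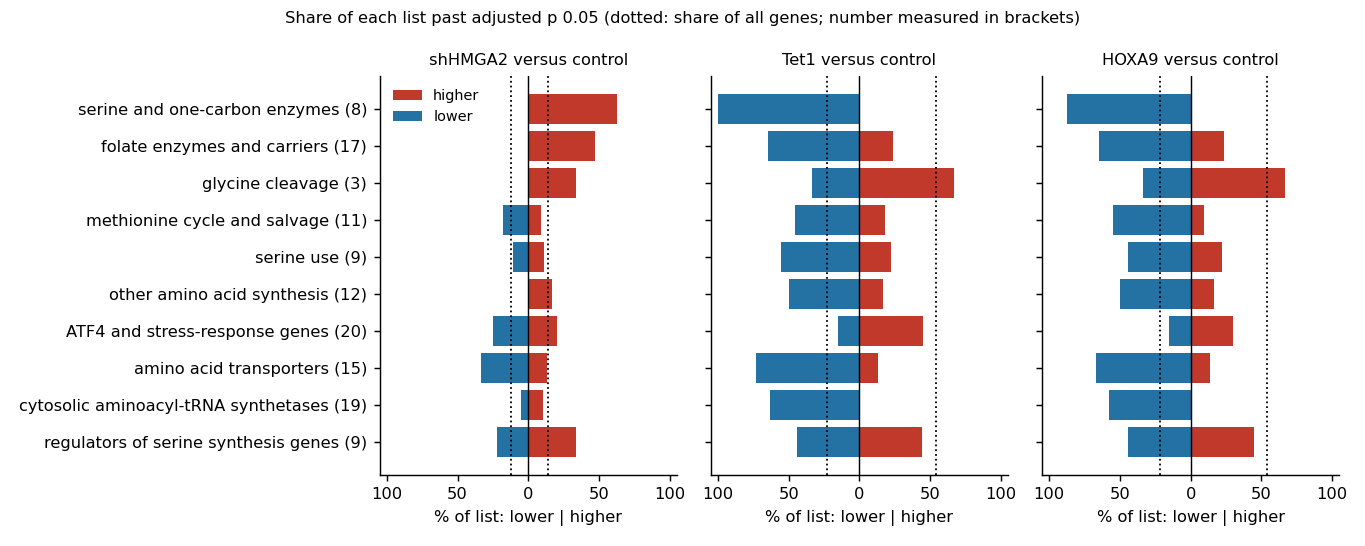
Percent of the measured genes of each list that were higher (to the right) or lower (to the left) than control at a limma adjusted p under 0.05, with dotted lines at the percent of all genes. In shHMGA2 the share higher is past the 13.6% line for the serine and one-carbon enzymes (5 of 8) and the folate genes (8 of 17). It is also past it for regulators (3 of 9), glycine cleavage (1 of 3), ATF4 genes (4 of 20) and other amino acid synthesis (2 of 12). For glycine cleavage and other amino acid synthesis 1 gene decides this. The share lower is past the 12.6% line for ATF4 genes (5 of 20), regulators (2 of 9), amino acid transporters (5 of 15) and methionine genes (2 of 11). In the inducible lines the bars of most lists point to lower values.

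Markers of other cells moved with the inducible lines as well. Of 9 fibroblast markers 8 were higher in Tet1 and in HOXA9 than in control, and the list mean per array was 6.87 to 7.16 against 6.20 to 6.26. All 6 measured blood markers were higher, with list means of 7.46 to 7.58 against 6.79 to 6.82. Of all genes 53.9% were higher in Tet1 and 54% in HOXA9. In control 4 of the 9 and 3 of the 6 averaged below 6.22, and the lower quartile of all values was 5.75 to 5.76 in the first array set and 6.22 to 6.25 in the second. The defining leukocyte gene PTPRC was at 5.22 and 5.21 against 4.91. After quantile normalization 7 fibroblast markers were higher in each line, and with equal medians 6 and 5, while blood markers came to 3 and 4, then 2 and 2. Of all 18417 genes 6001 and 5478 were higher after quantile normalization, and 4037 and 3730 with equal medians. Their part in the falls of the 8 enzymes was not tested.

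Across the 10 arrays the genes closest in pattern to each enzyme, by Pearson correlation among 14432 genes, were UBA1 for PHGDH (0.991), DONSON for PSAT1 (0.997), BLMH for PSPH (0.976) and WDR77 for SHMT1 (0.996). For SHMT2 it was CHCHD10 (0.994), for MTHFD1 XPO4 (0.990), for MTHFD2 SPEN (0.998) and for ASNS SRRD (0.988). The gap between the array sets raises such values, and the number of genes above 0.95 differed widely: 1149 for PSAT1, 942 for SHMT2, 803 for SHMT1, 600 for MTHFD2, 326 for PHGDH, 116 for ASNS, 11 for PSPH and 7 for MTHFD1. Within the 6 control and shHMGA2 arrays the value for CHCHD10 was 0.66, and for the other 7 genes 0.955 to 0.993. These 6 arrays are among the 10 by which the genes were picked out of 14432, so these values are no independent check.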

How the data were processed

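RNA of 4 groups of MDA-MB-231 cultures was measured on Affymetrix arrays. The deposited log2 values of 33297 probe sets come from RMA (background correction, quantile normalization and probe summary), run in R 2.11 by the authors according to the submitters' processing notes. No source used here says whether the arrays were normalized as 1 set. Columns equal to the mean of others of their group within 1e-06 were left out.

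Gene names came from the platform annotation (19460 probe sets with 1 symbol, 1754 with several, 12083 not listed). Of 177 listed genes 161 were measured. A 4-group linear model was fitted with limma 3.58.1 in R 4.3.3 (residual degrees of freedom 6, prior 5.65), with two-sided tests, Benjamini-Hochberg adjustment over 18417 genes and a threshold of 0.05. Dim probe sets were kept. The fit was tested on simulated data. The number of arrays limits the precision.

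The members and lists were chosen with earlier results of these data known. Named genes were the 8 members, the targets, and the called gene with the largest rise and the largest fall per list and comparison whose groups did not overlap, and the gene most like each member. Other genes were chosen after their values were seen. Alternatives were other scalings, filters, probe set rules, all 12 columns, a moderated trend, a fit of the compared groups only, a replicate block and leaving out each array.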

Additional observations from a re-analysis of the deposited data

How the results depend on the processing

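Of the counts of genes and of members recomputed under the alternatives, 209 kept within 1.5 times their value as reported and 7 moved. Of the members' fold changes 568 kept their side of the threshold, 5 gained a call and 3 lost one. Some uncalled differences near 0 changed sign, such as PSAT1 between Tet1 and HOXA9 (-0.017 as deposited, 0.003 after quantile normalization). No called fold change reversed. The 7 moved counts concern Tet1 against HOXA9, where 80 genes were called: 145 after quantile normalization, 143 in a fit restricted to the compared groups, and 1112 with all 12 columns, which counts averaged columns as replicates and called 1 member lower (SHMT1, limma adjusted p = 0.045). Leaving out each array gave 11 to 112 genes there, with 11 without Tet1 replicate 1, 18 without Tet1 replicate 2 and 17 without HOXA9 replicate 2. For MTHFD1 in HOXA9 a call was gained with equal medians (-0.61, limma adjusted p = 1.5e-05), with 12 columns (0.017), with a trended, robust fit (0.046) and without control replicate 1 (0.025). Same-numbered arrays of different groups gave correlations of their deviations of -0.19 to 0.17 over 13 pairs, against -0.27 to 0.27 over 24 others. Deviations were taken from group means, so in groups of 2 arrays each value returns with its sign reversed. These ranges therefore cannot decide whether the numbers pair the samples. Same-numbered pairs gave 0.16, 0.14 and 0.002 for control with shHMGA2 and 0.17 for Tet1 with HOXA9. Between the array sets they gave -0.19 to 0.10. Other-numbered pairs of control with shHMGA2 gave -0.17 to 0.04. With the replicate block the members called were 5 in shHMGA2, 0 between Tet1 and HOXA9, 8 in Tet1 and 7 in HOXA9, as without it, and the genes called were 4885, 69, 14093 and 13805. Other causes of these changes were not tested. With 2 independent arrays in each inducible line, small differences between them are not measurable here.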

Other observations

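Regulators known to act on serine synthesis genes changed in both directions. In shHMGA2 3 of 9 rose and 2 fell as deposited. KDM4C, a histone demethylase known to activate these genes, rose by 0.37 (limma adjusted p = 0.0066), and MDM2, the p53 ligase, by 0.27 (0.013). PKM, the pyruvate kinase whose activity limits the flow of glycolytic carbon into serine, fell by 0.27 (limma adjusted p = 0.0056), and NFE2L2, the antioxidant response factor, fell by 0.23 (0.02). MYC was at 0.07 and was not called.

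In Tet1 and in HOXA9 4 of these 9 rose and 4 fell as deposited. After quantile normalization 2 and 3 were higher and 4 lower, and with equal medians 0 and 1 were higher and 8 and 7 lower. The lower share of all genes was 23.2% and 21.6% as deposited, 33.3% and 34% after quantile normalization and 51.4% and 51.1% with equal medians. KDM4C, the largest riser, rose by 0.57 in Tet1 and 0.69 in HOXA9 as deposited, and was at 0.18 and 0.30 after quantile normalization and 0.10 and 0.23 with equal medians, with no call in Tet1 under either. MDM2 fell by 0.74 and 0.65, and EIF2AK4, the GCN2 kinase that senses uncharged tRNA, by 0.63 and 0.54. EHMT2, a histone methyltransferase, fell by 0.56 and 0.63. NFE2L2, MYC, EIF2AK4 and EHMT2 were chosen after their values were seen.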
